A study of Mus musculus with 6 samples.

Results

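The 10 genes described here control the decision of a cell to leave G1 and copy its DNA. They are the D cyclins Ccnd1, Ccnd2 and Ccnd3, their kinases Cdk4 and Cdk6, the retinoblastoma gene Rb1, and the CDK inhibitor genes Cdkn1a, Cdkn1b, Cdkn2a and Cdkn2b. They were taken by symbol from count tables that list 55291 genes, and 9 of the 10 were among the 17268 genes with enough reads to be tested. Cdkn2a was not. RNA was sequenced from sorted mammary cells of female mice 6 weeks old, in puberty, when the ducts grow from terminal end buds (TEBs) at their tips. All 6 libraries came from Adgra3-lz/+ animals, which carry 1 normal allele and 1 allele in which part of Adgra3 is replaced by lacZ, on an FVB/N background. Adgra3 encodes the adhesion receptor Gpr125, and beta-galactosidase made from the lacZ allele turns over the fluorescent substrate FDG. Cells with high CD49f, a surface integrin of the basal layer, were sorted by FDG as Gpr125+ or Gpr125-negative. They had been stained for endothelial, blood and erythroid antigens and for CD140a (Pdgfra). The 3 groups were Gpr125-negative cells, whose labels give no region, Gpr125+ cells from the TEB-distal region and Gpr125+ cells from the nipple-proximal region, with 2 libraries each. Each library pooled abdominal glands of 5 mice, so a p-value measures spread between pools and not between single mice. The main fit estimated that spread from all 6 libraries together.

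Progress through G1 depends on D cyclins binding Cdk4 or Cdk6. The active kinases phosphorylate the retinoblastoma protein, which then releases E2F transcription factors and lets the genes of DNA synthesis be transcribed. The INK4 proteins p16 and p15, from Cdkn2a and Cdkn2b, bind the kinases themselves, whereas the CIP/KIP proteins p21 and p27, from Cdkn1a and Cdkn1b, bind cyclin and kinase complexes. Cdkn2a also encodes p19Arf from another first exon. In the mammary gland cyclin D1 is known for its role in lobuloalveolar growth during pregnancy.

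Libraries held 20134890 to 37296640 counts, and 3 counts corresponded to 0.0645 to 0.147 CPM, the counts of a gene scaled to a common library size. Gpr125-negative replicate 2 stood apart, since 18.5% of the tested genes were at 0 counts in it and 4.29% to 7.3% in the other libraries. There were 653 tested genes at 0 in that library and above 3 CPM in Gpr125-negative replicate 1, and 145 the other way round. Adgra3 itself did not follow the sort, at 35.7 and 18.6 CPM in Gpr125-negative, 15.0 and 4.83 in TEB-distal and 19.2 and 12.3 in nipple-proximal replicates. Its log2 fold change over Gpr125-negative cells was -1.45 ± 0.92 (SE, n = 2 libraries per group) in TEB-distal cells, with an edgeR adjusted p of 0.982. Gpr125-negative and Gpr125+ are therefore used as the names of the labels. The summed level of 12 basal markers was 3393 and 3554 CPM in Gpr125-negative replicates 1 and 2, 4017 and 23031 in TEB-distal and 9449 and 14952 in nipple-proximal replicates, with all 12 detected in each. The sum of 12 endothelial markers was 1377 and 848 CPM in Gpr125-negative replicates 1 and 2, 19.7 and 22.1 in TEB-distal and 241 and 27.7 in nipple-proximal replicates, and Vwf, Robo4 or Tek was at 0 in 4 of them. The sum of 10 fibroblast markers was 59.9 and 145 CPM in Gpr125-negative, 158 and 256 in TEB-distal and 105 and 83.8 in nipple-proximal replicates, highest in both TEB-distal libraries, with Fap at 0 in every library. Of the 8 fibroblast markers tested, 5 were higher in both TEB-distal than in both Gpr125-negative libraries and 6 than in both nipple-proximal libraries. The sum of 8 pericyte markers was 12.7 and 27.9, 5.26 and 1.67, and 3.88 and 23.8 CPM in the same order, and 6 of the 8, Rgs5 and Cspg4 among them, were at 0 in both TEB-distal libraries. The sum of 12 leukocyte markers was 82.8 and 78.8, 145 and 312, and 201 and 118 CPM, higher in all 4 Gpr125+ libraries, and that of 12 luminal markers overlapped at 648 to 2305 CPM. The part of these cell mixtures in the results below was not tested. In bulk RNA, fewer cells of a type and less RNA per cell cannot be told apart.

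No gene of the 10 passed the threshold of a Benjamini-Hochberg FDR under 0.1 and a 2-fold change in any of the 3 comparisons by edgeR's quasi-likelihood test, and none did by DESeq2 on all 6 libraries, where the smallest adjusted p was 0.175 for Ccnd2 in TEB-distal over Gpr125-negative cells. The background was 0% of the 17268 tested genes in each comparison by edgeR, which at an unadjusted p under 0.05 counted 1045 genes for TEB-distal over Gpr125-negative cells, 613 for nipple-proximal over Gpr125-negative cells and 381 for TEB-distal over nipple-proximal cells. DESeq2 on all 6 libraries called 635, 208 and 101 genes in these comparisons, or 3.68%, 1.20% and 0.585% of those tested. The biological coefficient of variation was 0.967. The genes are therefore described by their levels, by the order of the libraries and by the intervals of the differences. The first 2 comparisons share the Gpr125-negative libraries and are not independent. An exact permutation test of 2 against 2 libraries cannot give a two-sided p below 0.333.

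**Figure D1:**
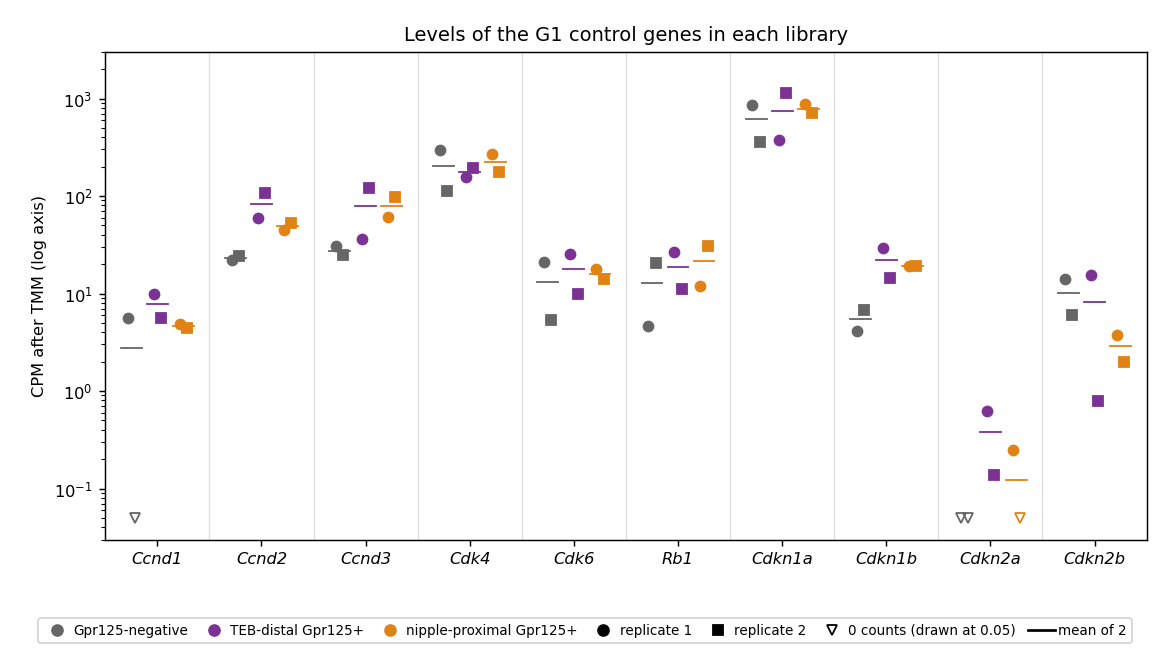
Level of each gene (CPM after TMM normalization, log axis) in each library, coloured by group, with circles for replicate 1, squares for replicate 2, bars for the mean of 2 and open triangles for 0 counts. Ccnd2, Ccnd3 and Cdkn1b lie higher in all 4 Gpr125+ libraries than in both Gpr125-negative libraries, and Cdkn1a and Cdk4 have the highest levels.

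Among the D cyclins, Ccnd2 separated the groups most evenly. Ccnd2 was at 22.0 and 24.2 CPM in Gpr125-negative replicates 1 and 2, 60.2 and 107 in TEB-distal and 45.0 and 53 in nipple-proximal replicates. All 4 Gpr125+ libraries lay above both Gpr125-negative libraries, and both TEB-distal libraries lay above both nipple-proximal libraries. The log2 fold change over Gpr125-negative cells was 1.86 ± 0.65 (SE, n = 2 per group) in TEB-distal cells, with a 95% interval of 0.35 to 3.37, an unadjusted edgeR p of 0.0218 and an adjusted p of 0.803. In nipple-proximal cells it was 1.09 ± 0.64, with an interval of -0.39 to 2.56 and an edgeR adjusted p of 1.0. Between the Gpr125+ groups, TEB-distal cells were higher by 0.77 ± 0.64 on the log2 scale, and the interval of -0.70 to 2.25 spans 0. The gap between the nearest TEB-distal and nipple-proximal libraries was 1.14-fold, within the range of the replicates of a group. Ccnd2 lies at chr6:127125162-127152193 on the minus strand (GRCm38).

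Ccnd3 was at 30.5 and 24.6 CPM in Gpr125-negative replicates 1 and 2, 36.5 and 121 in TEB-distal and 60.4 and 97.5 in nipple-proximal replicates. Both Gpr125+ groups lay above the Gpr125-negative libraries, but TEB-distal replicate 1 did so by 1.2-fold. Ccnd3 lies at chr17:47505051-47599691 on the plus strand. The log2 fold changes were alike in size, 1.52 ± 0.76 (SE, n = 2 per group, edgeR adjusted p = 0.872) in TEB-distal and 1.52 ± 0.76 (adjusted p = 1.0) in nipple-proximal cells. The Gpr125+ groups differed by -0.00 ± 0.75 on the log2 scale, with a wide interval of -1.74 to 1.73. Ccnd3-ps, a pseudogene with 96.3% identity over 881 bases, had 0 to 83 counts, with 83 in Gpr125-negative replicate 2, against 726 to 3559 counts of Ccnd3.

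Ccnd1 was the lowest D cyclin per exon length in every library, and its fold changes rested on a single library. Its counts were 259 and 0 in Gpr125-negative replicates 1 and 2, 257 and 166 in TEB-distal and 99 and 94 in nipple-proximal replicates, or 5.57 and 0, 10 and 5.65, and 4.86 and 4.43 CPM. Gpr125-negative replicate 2 held none, while replicate 1 lay between the nipple-proximal and the TEB-distal libraries. TEB-distal replicate 2 exceeded Gpr125-negative replicate 1 by 1.01-fold, and the groups overlap when scaled by total counts alone. The log2 fold change in TEB-distal cells was 1.49 ± 2.09 (SE, n = 2 per group), with an interval of -3.37 to 6.35 and an edgeR adjusted p of 1.0. Without Gpr125-negative replicate 1, when only the library at 0 counts remained as reference, it was 10.60 with an edgeR adjusted p of 0.0835, and this was the single call among the 10 genes. That fit called 579 genes, 3.35% of those tested. Without Gpr125-negative replicate 2 it was 0.49. The exons of Ccnd1 overlap those of LTO1 on the other strand over 1100 bases, 23.4% of its exon length, and the counting ignored strand. LTO1 had 446 counts in Gpr125-negative replicate 2, where Ccnd1 had 0.

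Corrected for exon length, the summed D cyclin level was 7.0 and 5.37 CPM per kilobase in Gpr125-negative, 12.7 and 26.4 in TEB-distal and 12.7 and 17.7 in nipple-proximal replicates. Each Gpr125+ library was above both Gpr125-negative libraries. The Ccnd2 and Ccnd3 shares did not overlap between nipple-proximal and TEB-distal libraries, while all shares overlapped between TEB-distal and Gpr125-negative libraries. Ccnd3 made 49.6% and 52.2% of it in Gpr125-negative, 32.8% and 52.3% in TEB-distal and 54.2% and 62.9% in nipple-proximal replicates. Ccnd2 made 33.5% and 47.8%, 50.4% and 43.2%, and 37.7% and 31.8% in the same order. The Ccnd3 share was thus higher in both nipple-proximal libraries than in the 4 others, and the Ccnd2 share lower than in both TEB-distal libraries. Ccnd1 was at most 16.9% of the sum in any library.

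**Figure D2:**
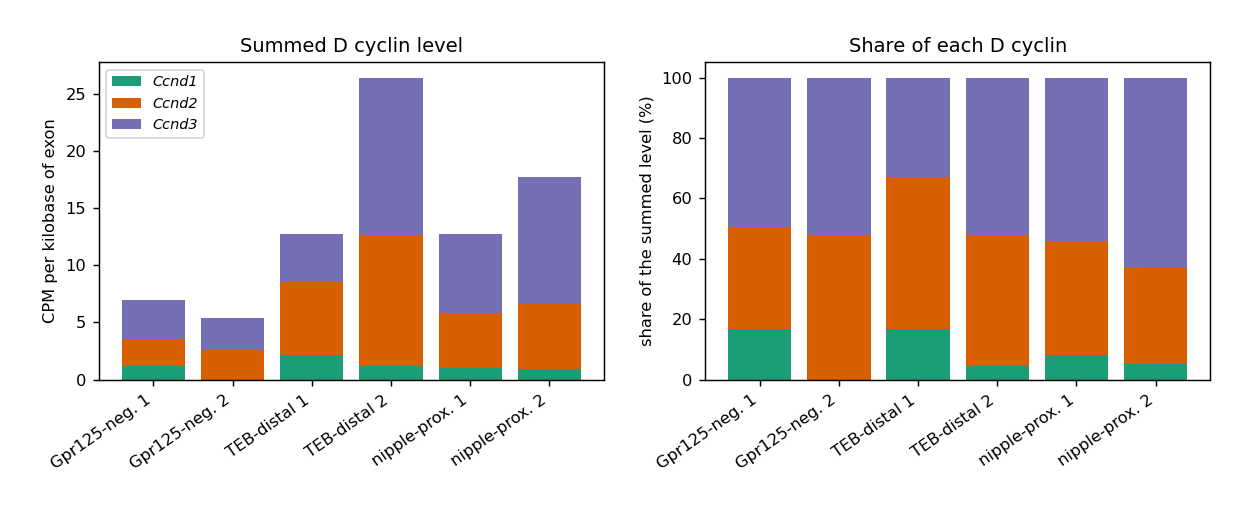
Summed level of Ccnd1, Ccnd2 and Ccnd3 per library (left, CPM per kilobase of exon, stacked) and the share of each in the sum (right, percent). The sums of the 4 Gpr125+ libraries lie between 12.7 and 26.4 and those of the Gpr125-negative libraries at 7.0 and 5.37. The Ccnd3 share is highest in the nipple-proximal libraries, 54.2% and 62.9%, but is close behind at 52.3% in TEB-distal replicate 2.

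The levels of the kinases overlapped between all groups. Cdk4 was at 296 and 113 CPM in Gpr125-negative replicates 1 and 2, 156 and 196 in TEB-distal and 272 and 177 in nipple-proximal replicates. Both Gpr125-negative libraries enclosed all 4 others. The log2 fold change in TEB-distal cells was -0.22 ± 0.73 (SE, n = 2 per group, interval -1.90 to 1.47) and in nipple-proximal cells 0.13 ± 0.73 (interval -1.55 to 1.82), with an edgeR adjusted p of 1.0 for both. Exons of Tspan31 on the other strand overlap 19.7% of the exon length of Cdk4.

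Cdk6 was at 21.1 and 5.32 CPM in Gpr125-negative replicates 1 and 2, 25.5 and 9.97 in TEB-distal and 17.8 and 14.1 in nipple-proximal replicates. All groups overlapped, and the log2 fold changes were 0.42 ± 0.98 in TEB-distal cells and 0.27 ± 0.98 in nipple-proximal cells (SE, n = 2 per group, edgeR adjusted p = 1.0 for both). Per exon length Cdk6 was 1.08% to 3.66% of the summed Cdk4 and Cdk6 level, with the highest share in TEB-distal replicate 1 and the lowest in Gpr125-negative replicate 2. The summed kinases exceeded the summed D cyclins per length by 13.2-fold and 6.53-fold in Gpr125-negative, 3.92-fold and 2.31-fold in TEB-distal and 6.68-fold and 3.14-fold in nipple-proximal replicates. Both TEB-distal ratios were below both Gpr125-negative ratios, and the nipple-proximal ratios overlapped them. For any such separation of 2 against 2 libraries, a two-sided exact permutation test gives a p of 0.333.

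Rb1, whose product is the main substrate of these kinases in G1, was at 4.60 and 20.8 CPM in Gpr125-negative replicates 1 and 2, 26.6 and 11.2 in TEB-distal and 11.9 and 30.9 in nipple-proximal replicates. Replicates of every group differed by more than 2-fold and all groups overlapped. The log2 fold changes were 0.57 ± 1.03 in TEB-distal cells and 0.75 ± 1.03 in nipple-proximal cells (SE, n = 2 per group, edgeR adjusted p = 1.0 for both).

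Of the CIP/KIP inhibitors, Cdkn1a was the most abundant of the 10 genes per exon length in every library. Cdkn1a was at 859 and 361 CPM in Gpr125-negative replicates 1 and 2, 379.9 and 1126 in TEB-distal and 876 and 703 in nipple-proximal replicates. Only 0.88% to 3.32% of the 16941 tested genes with a known length were higher per length. The groups overlapped, and the log2 fold changes were 0.30 ± 0.84 in TEB-distal cells and 0.37 ± 0.84 in nipple-proximal cells (SE, n = 2 per group, edgeR adjusted p = 1.0 for both).

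Cdkn1b, at chr6:134920401-134925513 on the plus strand, was far lower per exon length but separated the Gpr125+ from the Gpr125-negative libraries. It was at 4.17 and 6.81 CPM in Gpr125-negative replicates 1 and 2, 29.5 and 14.4 in TEB-distal and 19.0 and 19.0 in nipple-proximal replicates. All 4 Gpr125+ libraries lay above both Gpr125-negative libraries, by 2.11-fold at the nearest TEB-distal and 2.78-fold at the nearest nipple-proximal library. The log2 fold change was 2.00 ± 0.88 (SE, n = 2 per group, interval -0.03 to 4.03, edgeR adjusted p = 0.83) in TEB-distal cells and 1.79 ± 0.87 (interval -0.23 to 3.81, adjusted p = 1.0) in nipple-proximal cells. It was the largest fitted increase among the 9 tested genes in both comparisons. The paper reports that p27 protein was excluded from Gpr125 reporter cells in stained TEB sections. The values here are RNA of sorted pools, and protein was not measured in them. Cdkn1a exceeded Cdkn1b per length by 264-fold and 67.9-fold in Gpr125-negative, 16.5-fold and 100.4-fold in TEB-distal and 59.2-fold and 47.5-fold in nipple-proximal replicates. The nipple-proximal ratios lay below both Gpr125-negative ratios, and the TEB-distal ratios did not. The ratio of the summed D cyclins to Cdkn1b per length overlapped between all groups. It was 7.63 and 3.59 in Gpr125-negative, 1.96 and 8.37 in TEB-distal and 3.05 and 4.24 in nipple-proximal replicates.

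The INK4 genes lie next to each other on the minus strand, Cdkn2a at chr4:89274471-89294653 and Cdkn2b at chr4:89306299-89311039. Cdkn2a had 0 and 0 counts in Gpr125-negative replicates 1 and 2, 16 and 4 in TEB-distal and 5 and 0 in nipple-proximal replicates, at most 0.624 CPM, and p16 and p19Arf transcripts were not separated. Against a floor of 3 counts in each Gpr125-negative library, its mean was 4.57-fold the floor in TEB-distal and 1.48-fold in nipple-proximal cells. TEB-distal replicate 2 was at 0.136 CPM, beside a floor of 0.102 CPM in Gpr125-negative replicate 2. These floors cover counting error only, since reads carried no molecular identifiers. DESeq2 on the 4 TEB-distal and Gpr125-negative libraries, with all genes of at least 1 count, gave an unadjusted p of 0.147. Cdkn2b was at 14.0 and 6.06 CPM in Gpr125-negative replicates 1 and 2, 15.4 and 0.783 in TEB-distal and 3.78 and 1.98 in nipple-proximal replicates. Both nipple-proximal libraries were below both Gpr125-negative libraries, while the TEB-distal libraries held the highest and the lowest value of all. The log2 fold change in nipple-proximal cells was -1.80 ± 1.54 (SE, n = 2 per group, interval -5.38 to 1.78, edgeR adjusted p = 1.0). In TEB-distal cells it was -0.31 ± 1.49, and it became -3.65 without TEB-distal replicate 1.

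**Figure D3:**
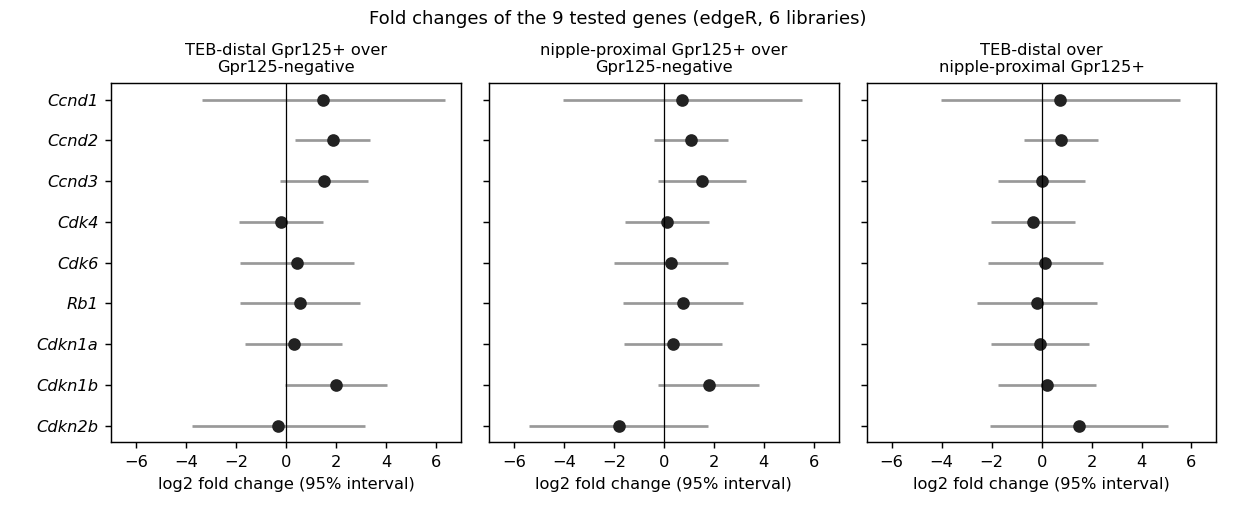
Log2 fold change (edgeR, dots) with its 95% interval (lines) of the 9 tested genes in each comparison. The interval of Ccnd2 in TEB-distal over Gpr125-negative cells, 0.35 to 3.37, is the single one that does not include 0, and this value did not pass the adjusted threshold.

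Counted together, 4 of the 9 tested genes (Ccnd1, Ccnd2, Ccnd3 and Cdkn1b) were higher in both TEB-distal than in both Gpr125-negative libraries, where 14.0% of all tested genes were. In nipple-proximal cells 3 (Ccnd2, Ccnd3 and Cdkn1b) were higher, against 19.9% of all tested genes, and 1 (Cdkn2b) was lower, against 10.8%. Between the Gpr125+ groups Ccnd1 and Ccnd2 were higher in both TEB-distal libraries, against 15.2%, and none was lower, against 18.3%. In all 4 Gpr125+ libraries over both Gpr125-negative libraries the count was 3, against 7.66% of all tested genes. This count stayed at 3, with the same genes, under the size factors of DESeq2, against 6.97% of all tested genes, and under total counts alone, against 6.28%. Leaving out a library can only add genes to such a count. Without 1 of the Gpr125+ libraries it was 3, against 9.35% to 13.3% of all tested genes, without Gpr125-negative replicate 1 it was 7, against 32.0%, and without Gpr125-negative replicate 2 it was 4, against 23.6%. The median log2 fold change of the 9 genes was 0.57, 0.73 and 0.15 in the 3 comparisons, beside 0.03, -0.00 and 0.06 over all tested genes.

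**Figure D4:**
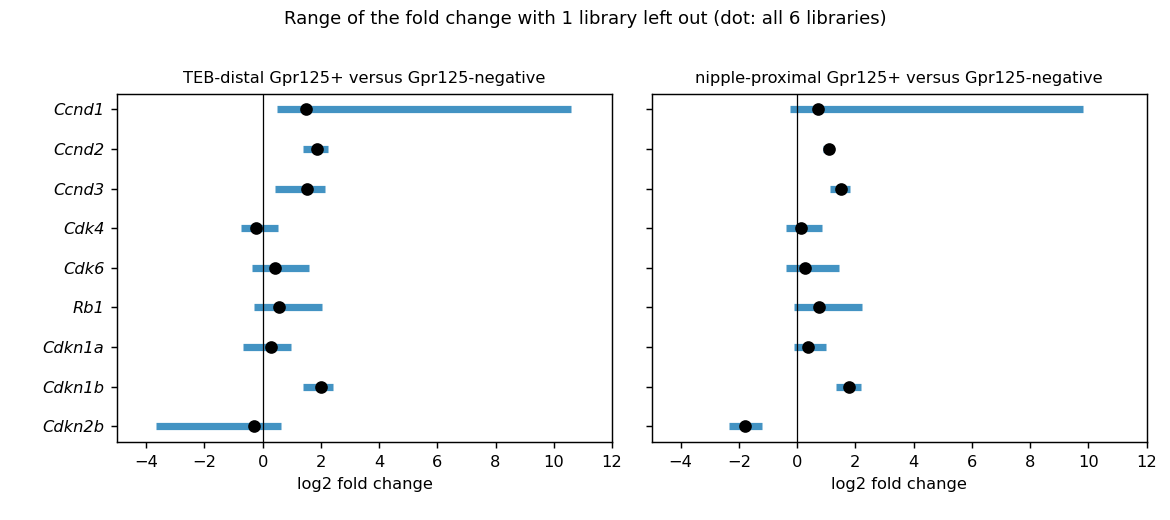
Lowest to highest log2 fold change of each gene when 1 library is left out (bars), with the value from all 6 libraries (dots), for TEB-distal (left) and nipple-proximal Gpr125+ cells (right) over Gpr125-negative cells. Ccnd2, Ccnd3 and Cdkn1b stay above 0 in both panels, whereas Ccnd1 reaches 10.60 and 9.83, Cdk4, Cdk6, Rb1 and Cdkn1a cross 0 in both, Ccnd1 crosses 0 at the right and Cdkn2b at the left.

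Promoters are shown for Ccnd3 and Cdkn1b, which ordered the Gpr125+ above the Gpr125-negative libraries, and for Cdk4, which did not. Ccnd2 had the same order, but no promoter window was available for it. Each line is the 250 bases before a start of the gene, 5′ to 3′ on the gene's own strand, from RefSeq on GRCm38.p6, with matches to the searched motifs in capitals. Ccnd3 has a start after chr17:47504801-47505050 and another after chr17:47593217-47593466, both on the plus strand. Cdkn1b starts after chr6:134920151-134920400 and Cdk4 after chr10:127063285-127063534, also on the plus strand.
Ccnd3, upstream start: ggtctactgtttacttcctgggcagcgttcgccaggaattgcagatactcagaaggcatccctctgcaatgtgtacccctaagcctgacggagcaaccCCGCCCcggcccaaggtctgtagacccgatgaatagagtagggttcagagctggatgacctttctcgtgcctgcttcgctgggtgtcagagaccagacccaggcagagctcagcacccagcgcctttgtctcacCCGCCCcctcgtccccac
Ccnd3, downstream start: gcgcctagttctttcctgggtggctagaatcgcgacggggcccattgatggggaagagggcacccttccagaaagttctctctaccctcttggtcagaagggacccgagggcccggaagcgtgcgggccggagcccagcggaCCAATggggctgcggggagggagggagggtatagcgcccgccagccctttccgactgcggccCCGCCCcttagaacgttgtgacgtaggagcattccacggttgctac
Cdkn1b: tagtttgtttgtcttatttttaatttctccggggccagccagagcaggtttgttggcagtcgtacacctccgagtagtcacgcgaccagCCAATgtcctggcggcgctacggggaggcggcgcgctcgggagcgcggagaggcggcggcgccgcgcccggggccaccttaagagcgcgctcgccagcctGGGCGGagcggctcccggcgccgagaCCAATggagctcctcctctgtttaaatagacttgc
Cdk4: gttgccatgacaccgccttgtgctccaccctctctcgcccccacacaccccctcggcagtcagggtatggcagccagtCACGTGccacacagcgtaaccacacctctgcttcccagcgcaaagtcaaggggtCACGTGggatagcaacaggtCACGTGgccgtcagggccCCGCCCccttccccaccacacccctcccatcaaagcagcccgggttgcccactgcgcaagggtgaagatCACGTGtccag

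The motifs, searched on both strands, were the GC box GGGCGG, the CCAAT box CCAAT, the E-box CACGTG, the TATA box TATAAA and an E2F site TTTCGCGC. They are found in 32.7%, 33.8%, 6.02%, 12.4% and 0.256% of 32851 promoter windows of this length. The Cdkn1b window holds 2 CCAAT boxes and 1 GC box, and the downstream Ccnd3 window 1 of each. The upstream Ccnd3 window holds 2 GC boxes. Cdk4 holds 4 E-boxes, the letters bound by Myc with Max, and 1 GC box, and 0.0213% of all windows hold 4 or more E-boxes. The Cdkn2b, upstream Cdkn1a and downstream Cdkn2a windows hold none of the 5 motifs. Cdk6 holds an E-box and a TATA box, and the downstream Cdkn1a and upstream Cdkn2a windows hold GC boxes. A match is a description of letters, and the gene counts do not tell which start was used. Myc itself was at 316 and 326 CPM in Gpr125-negative replicates 1 and 2, 179.6 and 516 in TEB-distal and 422 and 558 in nipple-proximal replicates, and was picked after its values were seen.

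The rest of the G1 to S machinery was followed in a list of 30 genes, of which 29 were tested. None was called by edgeR in any comparison. Unadjusted p values were under 0.05 for 2 genes, both higher, in TEB-distal over Gpr125-negative cells and for 1, also higher, in nipple-proximal over Gpr125-negative cells, beside 3.80% and 2.62% of all tested genes. The median log2 fold change was 0.51, 0.24 and 0.34 in the 3 comparisons. In TEB-distal over Gpr125-negative cells, 8 of 29 genes were higher in both libraries and 3 were lower, beside 14.0% and 10% of all tested genes. From this list and the 3 lists below, levels are given for genes chosen by their smallest unadjusted edgeR p, apart from Pcna. Their order between the groups was favoured by this choice and is only a description.

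Ccne2, a cyclin E that activates Cdk2 after the D cyclins, was at 0.129 and 0.644 CPM in Gpr125-negative replicates 1 and 2, 11.6 and 5.24 in TEB-distal and 2.01 and 8.99 in nipple-proximal replicates. All 4 Gpr125+ libraries were higher, and the log2 fold change in TEB-distal cells was 4.44 ± 1.71 (SE, n = 2 per group, edgeR adjusted p = 0.803). It was the gene of the list called by DESeq2 on all 6 libraries. E2f7, a repressive E2F, was at 0 counts in each Gpr125-negative library, against 13 and 61 in TEB-distal and 33 and 9 in nipple-proximal replicates. Cdkn1c, which encodes the CIP/KIP inhibitor p57, was at 8.93 and 5.62 CPM in Gpr125-negative replicates 1 and 2, 20.9 and 8.07 in TEB-distal and 3.44 and 2.07 in nipple-proximal replicates. Both TEB-distal libraries were above both nipple-proximal libraries, by 2.39 ± 1.17 on the log2 scale (SE, n = 2 per group, edgeR adjusted p = 1.0). The fibroblast marker sum was likewise higher in both TEB-distal than in both nipple-proximal libraries, as was Ccnd2, and its part in these differences was not tested.

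**Figure D5:**
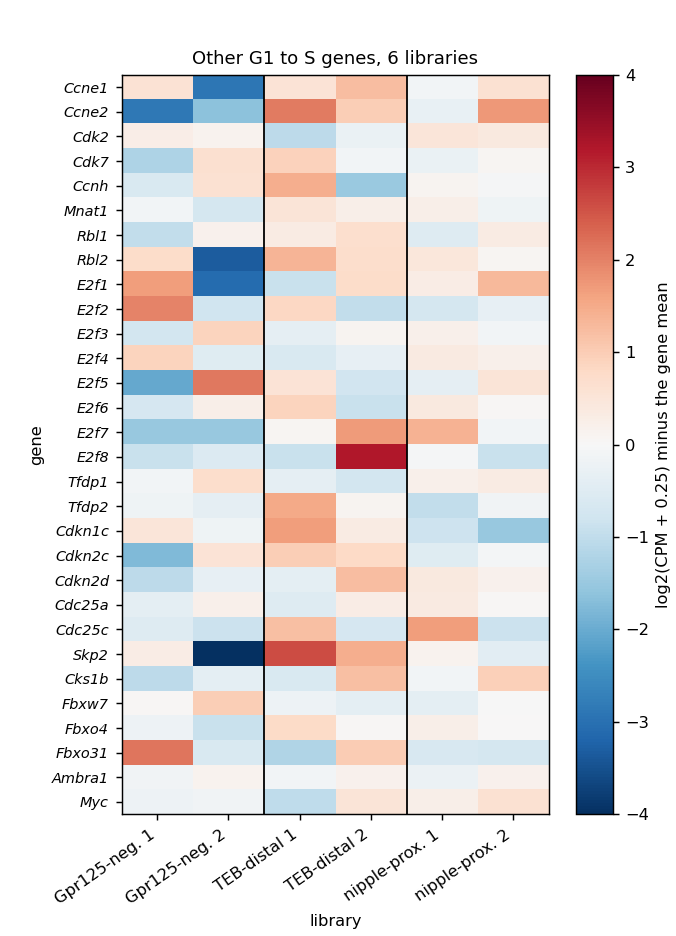
Log2(CPM + 0.25) of the 30 other G1 to S genes in each library, less the mean of the gene over the 6 libraries (red higher, blue lower). Ccne2 is low in both Gpr125-negative libraries, and the lowest values of Ccne1, Rbl2 and Skp2 are in Gpr125-negative replicate 2, where these genes had 0 counts.

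Genes of DNA replication and mitosis lie downstream of the G1 decision. Of 24 such genes, 11 were higher in both TEB-distal than in both Gpr125-negative libraries and 4 were lower, beside 14.0% and 10% of all tested genes, and none was called. In nipple-proximal over Gpr125-negative cells 7 were higher and 4 were lower, beside 19.9% and 10.8%. In all 4 Gpr125+ libraries 5 were higher than in both Gpr125-negative libraries, beside 7.66% of all tested genes. Mcm4, Mcm7, Tyms and Plk1 were lower in all 4, beside 5.00%, so the list had no common direction. Their median log2 fold change was 1.05 in TEB-distal cells and 0.39 in nipple-proximal cells over Gpr125-negative cells, for the 24 genes together. Top2a, a topoisomerase of dividing cells, was at 0.151 and 0.305 CPM in Gpr125-negative replicates 1 and 2, 13.3 and 9.63 in TEB-distal and 4.37 and 3.39 in nipple-proximal replicates. The groups did not overlap, and the log2 fold change in TEB-distal cells was 5.64 ± 1.53 (SE, n = 2 per group, edgeR adjusted p = 0.803). Mcm5, a subunit of the replicative helicase, was at 4.69 and 1.22, 14.0 and 55.7, and 14.8 and 15.9 CPM in the same order. Ccna2, the S-phase cyclin A, was at 0.108 and 0.0677, 1.40 and 7.86, and 1.67 and 0.188 CPM. The median level of the 24 genes was 4.92 and 3.49 CPM in Gpr125-negative replicates 1 and 2, 11.4 and 11.1 in TEB-distal and 6.43 and 5.27 in nipple-proximal replicates, highest in TEB-distal cells. Their summed level had another order, lowest in nipple-proximal cells and overlapping between the other groups, at 429 and 596 CPM in Gpr125-negative replicates 1 and 2, 465 and 469 in TEB-distal and 362 and 357 in nipple-proximal replicates. Pcna, the sliding clamp of DNA polymerase, made 334 CPM of the sum in Gpr125-negative replicate 2 and 73.8 in replicate 1, and was picked after its values were seen.

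Transcripts of p53 targets were followed because p53 activates Cdkn1a. Of 14 genes other than Cdkn1a, 0 were called, and the median log2 fold change was 0.70 in TEB-distal cells and 0.52 in nipple-proximal cells. Eda2r, a member of the TNF receptor family, was lower in all 4 Gpr125+ libraries, at 21 and 53.4 CPM in Gpr125-negative replicates 1 and 2, 0.819 and 0.136 in TEB-distal and 1.87 and 3.62 in nipple-proximal replicates. Its log2 fold change in TEB-distal cells was -6.28 ± 1.38 (SE, n = 2 per group, edgeR adjusted p = 0.803). Aen, an apoptotic nuclease, was at 115 and 33.4, 15.8 and 30.1, and 79.7 and 86.2 CPM in the same order. Sesn2, a stress-induced regulator of TORC1, was at 89.4 and 89.7, 112 and 238, and 194 and 294 CPM, higher in all 4 Gpr125+ libraries.

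Repressors of the INK4 locus, mostly Polycomb genes, showed no common direction. Of 12 genes, 0 were called and the median log2 fold change was -0.22 in TEB-distal cells and 0.24 in nipple-proximal cells over Gpr125-negative cells. Kdm2b, a histone demethylase that recruits a Polycomb complex, was at 24.1 and 28.8 CPM in Gpr125-negative replicates 1 and 2, 8.27 and 6.94 in TEB-distal and 7.91 and 15.7 in nipple-proximal replicates. All 4 Gpr125+ libraries were lower, and the log2 fold change in TEB-distal cells was -1.80 ± 0.86 (SE, n = 2 per group, edgeR adjusted p = 0.848). Tbx2, a T-box repressor, was at 7.44 and 4.50, 9.05 and 33.5, and 11.0 and 6.78 CPM in the same order, and Pcgf2, a Polycomb ring finger gene, at 10.2 and 0.813, 9.01 and 22.3, and 8.10 and 7.53 CPM.

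For each tested gene whose log2 CPM spanned at least 2 over the libraries, the 3 genes most like it were found by the root mean square difference of centred log2 CPM over 6 libraries, as a description. For Ccnd2 these were Gm8463 at 0.19, Pltp at 0.20 and 2700081O15Rik at 0.22. For Ccnd3 they were Gm10358 and Gm7191 at 0.11 and Gm16374 at 0.13, 2 of which are processed pseudogenes. For Cdkn1b the nearest were Trim32 at 0.21 and Gm10297 at 0.24. Some of these genes were near the floor of 3 counts, with Gm8463 at 0.0861 to 0.885 CPM over the libraries. Gm7191 was at 0.129 to 0.817 CPM and Gm10297 at 0.0645 to 0.585 CPM. Ccnd1 was nearest to Garem1 at 0.18, E130307A14Rik at 0.19 and Gstm4 at 0.21, and all 3 were also at 0 CPM in Gpr125-negative replicate 2. Cdk6 was nearest to Tmx2, Uxt and Il20rb at 0.13 to 0.16, and Rb1 to Armcx3, Kdm6a and Purb at 0.12 to 0.15. Cdkn2b had the most distant neighbours, Gm22711 at 0.37 and Hacl1 and Kif27 at 0.48.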

How the data were processed

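Per the labels and the study's methods, the authors made low-input SMART-Seq HT libraries, aligned reads to mm10 with STAR, for which the labels give version 2.7.3, and deposited unnormalized read counts per gene from unstranded HTSeq counting. The annotation release is not given in the sources used here. Without strand, reads from the bases that a gene shares with an overlapping antisense gene cannot be told apart. Counts of the 6 libraries were fitted in 1 model with edgeR 4.0.16 in R 4.3.3 (TMM, filterByExpr by group, robust glmQLFit, glmQLFTest), with adjustment over 17268 genes. A gene was called at FDR under 0.1 and 2-fold. Each SE was derived from the log2 fold change and the F statistic of the edgeR test. Intervals were built from that SE with the t distribution. The spread behind them was estimated over all 6 libraries, with information shared across genes. CPM used the TMM-scaled library sizes. DESeq2 1.42.0 was an alternative. Lengths and coordinates came from GENCODE M21, in which 53292 of 55291 symbols were found. Scripts were tested on simulated data. Replicate pairs differed by more than sampling noise. Transcripts of at least 300 aligned bases and 90% identity were sought with blastn 2.17.0. The 10 genes and the lists were chosen with earlier results of these data known. Of the other lists, called genes and the 3 with the smallest unadjusted p were named. One gene among those nearest to Cdkn1b in pattern is not reported here.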

Additional observations from a re-analysis of the deposited data

How the results depend on the processing

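The count of the 10 genes called was 0 in each comparison under every alternative that kept all libraries of the compared groups. With 1 library left out it ranged from 0 to 1 for TEB-distal over Gpr125-negative cells, the 1 being Ccnd1 without Gpr125-negative replicate 1, and the count of other G1 to S genes called likewise from 0 to 1. DESeq2 called 1 of these other genes in that comparison, on all 6 libraries and on the 4 compared libraries with all genes of at least 1 count, a setting chosen after seeing the data. Over all genes edgeR called 0 in each comparison. DESeq2 on all 6 libraries called 635, 208 and 101 genes for TEB-distal over Gpr125-negative, nipple-proximal over Gpr125-negative and TEB-distal over nipple-proximal cells, DESeq2 on the 4 compared libraries 380, 199 and 276, and with all genes of at least 1 count 667, 317 and 360. When every gene with at least 1 count was tested, edgeR called 137, 58 and 39. With 1 library left out it called 0 to 579, 0 to 185 and 0. The cause was not tested.

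Of 216 values of single genes under alternatives that kept all libraries, 16 turned in direction, and of 108 with 1 library left out, 26 did. For nipple-proximal over Gpr125-negative cells, Cdk4 was at -0.00 by DESeq2 on all 6 libraries and by DESeq2 size factors in edgeR and at -0.15 by total counts, and Cdk6 at -0.06 by total counts. For TEB-distal over nipple-proximal cells, Ccnd3 was at 0.13 by DESeq2 on all 6 libraries and by its size factors, 0.06 by DESeq2 and 0.04 by edgeR on the 4 compared libraries, 0.16 by total counts and 0.05 by DESeq2 on the 4 compared libraries with all genes of at least 1 count. Rb1 was at 0.04 by total counts, and Cdkn1a at 0.05 by DESeq2, its size factors and total counts. These scalings moved the median of all genes to -0.17 and -0.23 for nipple-proximal over Gpr125-negative cells and to 0.19 and 0.21 for TEB-distal over nipple-proximal cells.

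With 1 library left out, the log2 fold change for TEB-distal over Gpr125-negative cells ranged from 0.49 to 10.60 for Ccnd1, -0.75 to 0.53 for Cdk4, -0.37 to 1.60 for Cdk6, -0.28 to 2.03 for Rb1, -0.68 to 0.96 for Cdkn1a and -3.65 to 0.62 for Cdkn2b. For nipple-proximal over Gpr125-negative cells it ranged from -0.26 to 9.83 for Ccnd1, -0.40 to 0.86 for Cdk4, -0.40 to 1.44 for Cdk6, -0.11 to 2.22 for Rb1 and -0.12 to 0.99 for Cdkn1a. For TEB-distal over nipple-proximal cells it ranged from -1.11 to 0.72 for Ccnd3, -0.58 to 0.68 for Cdk6, -0.84 to 0.67 for Rb1, -1.05 to 0.60 for Cdkn1a, -0.31 to 0.64 for Cdkn1b and -1.78 to 2.42 for Cdkn2b. The number of the 10 genes higher in every Gpr125+ library ranged from 3 to 7. Where a group kept a single library, that library was assumed to vary like the others.

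With the replicate number as a block, 0 of the 10 genes and 0 of all genes were called, and the log2 fold changes for TEB-distal over nipple-proximal cells were -0.05 for Cdk6 and 0.17 for Rb1. The correlations of same-numbered deviations were -0.0347, 0.194 and -0.00495. They were not all above 0.1, so the numbers were not taken to pair the libraries. By read counts with no length, the mean share of Ccnd1 among the D cyclins was 4.8%, 5.9% and 3.63% in Gpr125-negative, TEB-distal and nipple-proximal cells, against 8.45%, 10.7% and 6.72% per length, and the mean share of Cdk6 among the kinases 5.58%, 9.44% and 6.75% in the same order. With 2 libraries per group, the intervals do not mark which differences could be called. The interval of Ccnd2 in TEB-distal over Gpr125-negative cells excluded 0, yet it was not called. The smallest edgeR adjusted p over all tested genes in that comparison was 0.485. A missing call does not show equal levels.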
